A study of Arabidopsis thaliana with 24 samples.

Results

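Cytosolic ribosomal proteins were followed at the level of their messenger RNA in leaves of Arabidopsis thaliana. The genes were taken from the deposited expression table by its gene descriptions, as nuclear rows that name a 40S, a 60S or a 60S acidic ribosomal protein. The rule gave 213 of 34218 genes. By description, 91 belonged to the small (40S) subunit, 107 to the large (60S) subunit and 12 to the acidic stalk of the large subunit, and 3 were annotated as mitochondrial ribosomal proteins although their descriptions carried the same words. Of the 213 genes, 191 were expressed highly enough to be tested, 185 of them at an FPKM of at least 1 in every library. FPKM scales the sequenced fragments of a gene to its transcript length and to the fragments of the library. Another 10 genes were listed at 0 in every library.

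The ribosome is the RNA and protein machine that translates messenger RNA. Its small subunit decodes the message, and its large subunit forms the peptide bonds. Each cytosolic ribosomal protein of Arabidopsis is usually encoded by several paralogous genes, and the proteins are assembled with ribosomal RNA into the subunits. In many organisms these genes are transcribed in a coordinated way that follows growth and nutrient supply. In plants the kinase TOR (target of rapamycin) links that supply to ribosome production and to phosphorylation of the 40S protein S6.

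The plants were 35 days old and had grown in a short day at a photon flux of 150 µmol m-2 s-1. Low-light (LL) plants stayed in that light, and high-light (HL) plants were placed for 3.5 h under white LEDs that gave about 1100 µmol m-2 s-1, beginning soon after dawn. The genotypes were the wild type Col-0, the line BBX32-10, which over-expresses the B-box zinc finger gene BBX32, and hy5-2, a mutant of the light-signalling bZIP transcription factor gene HY5. BBX32-10 is a single transgenic line, and the promoter that drives its transgene is not given in the sources used here. Each of the 6 groups held 4 libraries from 4 individual plants, with 4 leaves taken per plant and polyadenylated RNA sequenced. The study compared the genotypes in LL and after short-term HL. The comparisons below ask how the mRNA of the translation machinery differed between the light levels and between the lines.

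Depth, recovered from the steps of the FPKM values, ranged from 35408722 to 49341934 fragments per library. BBX32 mRNA was 2.27 to 4.07 FPKM in Col-0 LL and 809 to 897 FPKM in BBX32-10 LL. HY5 mRNA was at or below 0.930 FPKM in every hy5-2 library. Leaf mesophyll markers were abundant in every group (summed FPKM of 4 genes from 19360 to 33390), whereas 3 root markers summed to at most 0.341 FPKM and the seed storage gene CRA1 to at most 0.210 FPKM. One library stood apart: replicate 4 of BBX32-10 HL had the lowest summed ribosomal protein mRNA of the 12 HL libraries, and results that depend on it are given with and without it.

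Promoters are shown for 4 genes: the most abundant member, RPL19A, the member second in abundance, RPS23B, the member with the largest HL rise in Col-0, RPS9C, and RPS9B, the abundant paralog of RPS9C. Each sequence is the 250 bases before the annotated gene start in TAIR10.1 (RefSeq), read 5′ to 3′ on the gene's strand, and none overlaps another annotated gene. Capitals mark the site II motif (TGGGCC or TGGGCT) and the telo-box (AAACCCTA), 2 promoter elements known from plant ribosomal protein genes, on either strand. The G-box CACGTG, a motif bound by HY5 and other bZIP and bHLH factors, was also searched and is absent from these 4 windows.
RPL19A, AT1G02780, chr1:609535-609784, minus strand: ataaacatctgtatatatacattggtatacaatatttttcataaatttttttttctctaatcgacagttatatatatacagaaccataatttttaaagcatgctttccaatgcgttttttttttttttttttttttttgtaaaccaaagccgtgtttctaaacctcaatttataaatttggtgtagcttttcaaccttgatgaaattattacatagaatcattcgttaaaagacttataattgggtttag
RPS23B, AT5G02960, chr5:694516-694765, minus strand: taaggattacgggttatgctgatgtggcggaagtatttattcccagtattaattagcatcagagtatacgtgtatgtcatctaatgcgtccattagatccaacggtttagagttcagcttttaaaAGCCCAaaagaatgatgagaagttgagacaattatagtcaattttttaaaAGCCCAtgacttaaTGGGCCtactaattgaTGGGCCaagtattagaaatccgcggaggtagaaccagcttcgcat
RPS9B, AT5G15200, chr5:4936430-4936679, minus strand: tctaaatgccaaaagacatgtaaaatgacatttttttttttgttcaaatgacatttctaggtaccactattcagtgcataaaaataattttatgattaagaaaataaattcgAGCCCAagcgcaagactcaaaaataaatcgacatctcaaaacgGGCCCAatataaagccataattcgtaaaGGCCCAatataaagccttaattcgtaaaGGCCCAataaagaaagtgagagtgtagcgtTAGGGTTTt
RPS9C, AT5G39850, chr5:15949660-15949909, plus strand: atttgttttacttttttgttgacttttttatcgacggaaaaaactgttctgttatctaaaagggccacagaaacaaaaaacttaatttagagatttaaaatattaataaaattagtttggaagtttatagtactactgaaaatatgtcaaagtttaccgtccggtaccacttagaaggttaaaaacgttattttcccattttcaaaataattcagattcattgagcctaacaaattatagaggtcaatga

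The RPS9B window held 4 site II motifs and 1 telo-box, the RPS23B window held 4 site II motifs, and the windows of RPL19A and RPS9C held none of the motifs. Over all members, 67.6% of the 250-base windows held a site II motif, compared with 18.0% of the windows of 32546 annotated genes. A telo-box was found in 22.1% of members and 4.61% of all genes, and both motifs together in 16.9% and 1.40%. The G-box was found in 3.76% of members and 5.90% of all genes. Among genes expressed highly enough to be tested, site II was found in 67.5% of members and 23.4% of all genes. For the telo-box these shares were 19.4% and 3.77%, for both motifs together 14.1% and 1.52%, and for the G-box 3.14% and 7.45%. A match is a stretch of letters in the window and not a known binding site, and the windows stop at the annotated start.

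The summed mRNA of the 213 genes was higher after HL in Col-0. It was 26174, 28170, 25987 and 26878 FPKM in the 4 Col-0 LL libraries and 45519, 42055, 36900 and 38590 FPKM in the 4 Col-0 HL libraries, so the groups did not overlap. These sums were 3.91% ± 0.135 (SD, n = 4) of all FPKM in LL and 6.03% ± 0.560 (SD, n = 4) in HL. In BBX32-10 the LL libraries lay at 32058, 31219, 36227 and 30971 FPKM, all above Col-0 LL, and the HL libraries at 40716, 33903, 36690 and 25704 FPKM, which overlapped them. The hy5-2 LL libraries lay at 28677, 33006, 34985 and 30195 FPKM, also all above Col-0 LL. The hy5-2 HL libraries lay at 43402, 37555, 35140 and 34849 FPKM, where replicate 4 was just below the highest LL library of that line. Fewer cells of a type and less RNA per cell cannot be told apart in these whole-leaf samples.

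**Figure D1:**
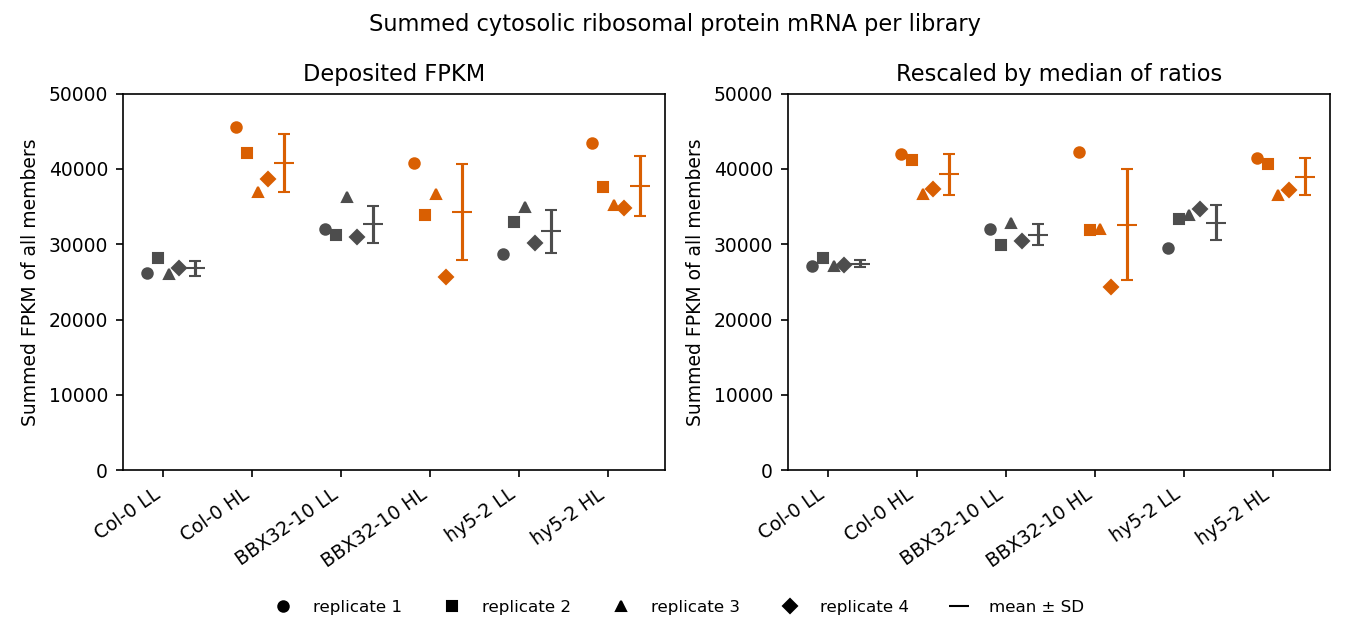
Summed FPKM of the 213 ribosomal protein genes in each library (vertical axis, FPKM, from 0) for the 6 groups, as deposited on the left and after division of each library by its median ratio to the gene-wise geometric mean on the right. Symbols are replicates 1 to 4 and the horizontal dash with its bar is the mean ± SD. Col-0 HL lies above Col-0 LL on both scales, and replicate 4 of BBX32-10 HL lies at 25704 FPKM, below the other 11 HL libraries.

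In Col-0, HL raised the mRNA of nearly the whole cytosolic ribosome. Of the 191 genes tested, 178 rose and 1 fell at an adjusted p under 0.05 (limma, two-sided, Benjamini-Hochberg over 17788 genes), against 30% of all genes tested called higher and 21.6% called lower. The median log2 change of the members was 0.60 (quartiles 0.49 and 0.72), and that of all genes was 0.05. For 175 members all 4 HL libraries lay above all 4 LL libraries, as for 30.6% of all genes tested. The 178 include RPL22A (AT1G02830), which reached an FPKM of 1 in HL libraries of Col-0 and hy5-2 alone. It was tested because of them, so its rise is a description. RPS23A (AT3G09680) also entered the test through such HL libraries alone, and its values too are a description. Among 40S genes 76 of 81 rose (median 0.59), among 60S genes 93 of 99 rose (median 0.62) and 1 fell, and all 8 stalk genes that passed the filter rose (median 0.58). All log2 changes are on the scale log2(FPKM + 1), which understates the change of genes with low values.

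The subunits rose in step. The summed FPKM of 40S genes was 0.781 ± 0.00926 (SD, n = 4) times that of 60S genes in LL plants of Col-0 and 0.780 ± 0.00285 (SD, n = 4) times after HL, and the ratio stayed between 0.762 and 0.803 in all 24 libraries. When the genes were grouped by the protein they encode, 77 protein names had at least 1 tested gene. The summed FPKM of each of these was higher in Col-0 HL, from a log2 ratio of 0.20 for L41, the shortest ribosomal protein, to 0.98 for L14. The first principal component of the members held 78.6% of their variance over the 24 libraries, compared with 38.1% for all tested genes.

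**Figure D2:**
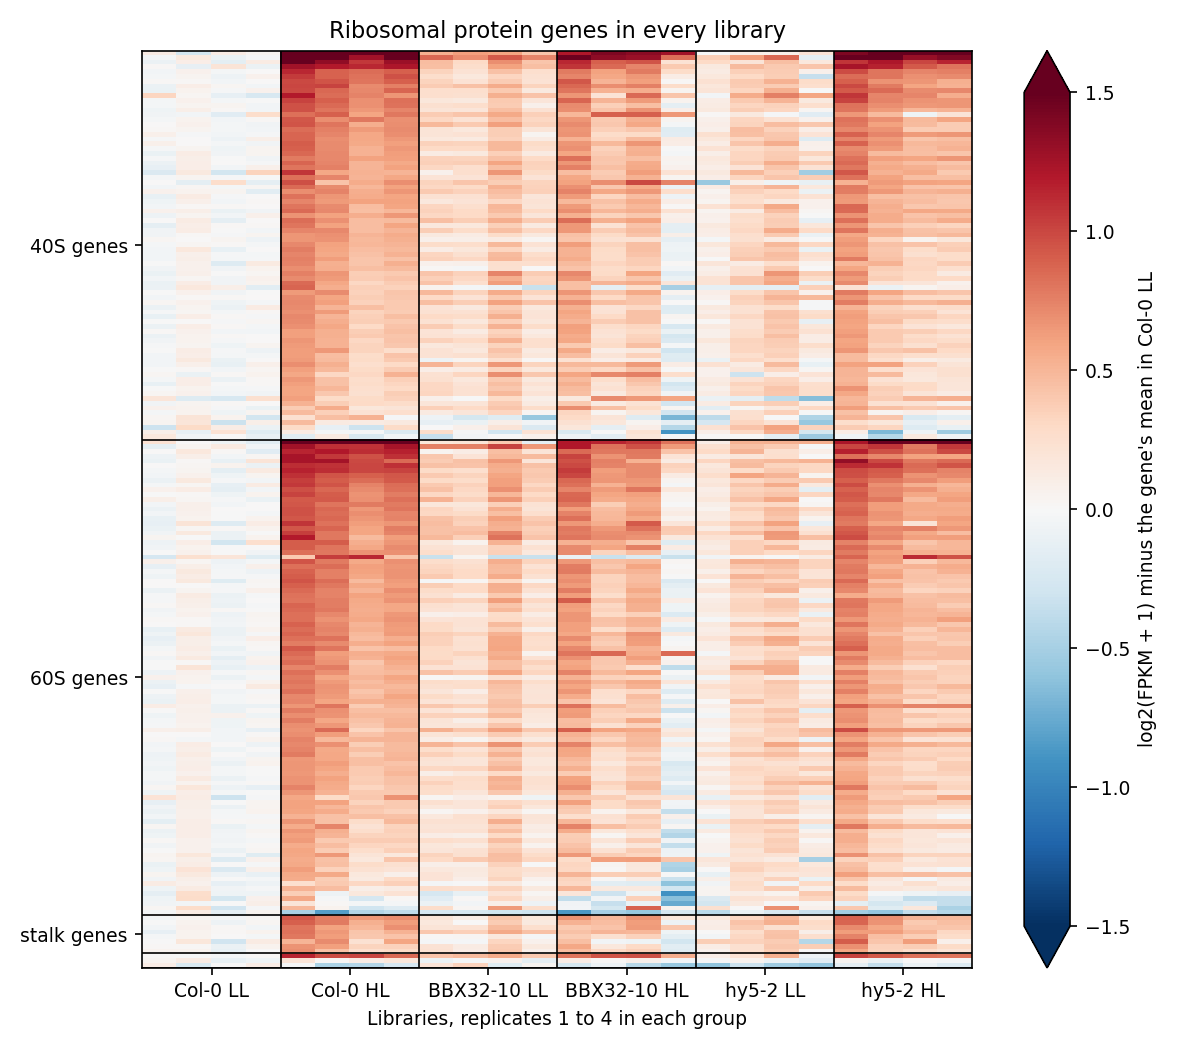
Each row is 1 of the 191 tested genes, in blocks of 40S, 60S and stalk genes and, unlabelled at the bottom, the 3 genes annotated as mitochondrial, ordered within a block by their mean deviation in Col-0 HL. Each column is 1 of the 24 libraries, and colour is log2(FPKM + 1) minus the gene's Col-0 LL mean. The median deviation of the members is 0.46 to 0.76 in Col-0 HL, 0.38 to 0.70 in hy5-2 HL and 0.21 to 0.44 in BBX32-10 LL. The LL libraries of hy5-2 have medians from 0.10 to 0.38. In BBX32-10 HL it is 0.60, 0.35 and 0.46 in replicates 1 to 3 and -0.03 in replicate 4.

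Among the abundant genes, RPL19A (AT1G02780) encodes a 60S protein that contributes to the bridges between the subunits. It was at 442, 486, 450 and 474 FPKM in Col-0 LL and at 729, 693, 636 and 659 FPKM in Col-0 HL. The groups did not overlap, and the log2 change was 0.55 ± 0.10 (SE, adjusted p = 5.54e-05, limma). In BBX32-10 it was at 536, 527, 604 and 518 FPKM in LL and at 654, 550, 613 and 441 FPKM in HL, where replicate 4 was lower than any LL library of that line. In hy5-2 it was at 498, 542, 580 and 545 FPKM in LL and at 692, 618, 602 and 571 FPKM in HL, with overlap only between the lowest HL and the highest LL library.

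The genes for S6, the 40S protein phosphorylated by S6 kinase, both rose. RPS6A (AT4G31700) was at 244, 254, 237 and 234 FPKM in Col-0 LL and at 465, 424, 354 and 392 FPKM in Col-0 HL, a log2 change of 0.75 ± 0.13 (SE, adjusted p = 4.11e-05, limma). RPS6B (AT5G10360) was at 237, 246, 245 and 237 FPKM in LL and at 398, 368, 342 and 345 FPKM in HL, a log2 change of 0.59 ± 0.11 (SE, adjusted p = 0.000116, limma). For both genes every HL library lay above every LL library in Col-0. The ubiquitin fusion genes AT3G52590 (named RPL40B in the table), whose protein yields ubiquitin and L40, and AT3G62250 (named RPS27AC), whose protein yields ubiquitin and S27a, changed by 0.52 and 0.51 on the log2 scale, and both were called.

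The stalk recruits the translational factors that hydrolyse GTP to the ribosome. Its base protein P0 came mainly from RPP0B (AT3G09200), which made up 90.3% of the summed FPKM of the P0 genes and was at 298, 297, 276 and 304 FPKM in Col-0 LL and at 469, 450, 370 and 374 FPKM in Col-0 HL. Its log2 change was 0.49 ± 0.12 (SE, adjusted p = 0.00193, limma). The P1 genes RPP1A (AT1G01100) and RPP1C (AT5G47700) changed by 0.76 and 0.71, and the genes of the plant-specific P3, RPP3A (AT4G25890) and RPP3B (AT5G57290), by 0.60 and 0.56. All of these changes were called.

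The 10 largest rises were in genes that were not the most abundant for their protein. RPS9C (AT5G39850), which encodes the 40S protein S9, was at 8.60, 6.31, 8.58 and 8.13 FPKM in Col-0 LL and at 29.0, 27.2, 29.1 and 32.7 FPKM in Col-0 HL, with no overlap and a log2 change of 1.78 ± 0.09 (SE, adjusted p = 4.34e-12, limma). RPS9B (AT5G15200), which gave 96.7% of the S9 mRNA, was at 378, 412, 345 and 378 FPKM in LL and at 677, 608, 520 and 525 FPKM in HL, a log2 change of 0.62 ± 0.13 (SE, adjusted p = 0.000426, limma). Both paralogs rose without overlap between the light levels. ARP2 (AT1G61580), a minor gene for the 60S protein L3 that lies near the peptidyl transferase centre, was at 12.6, 10.7, 10.1 and 9.50 FPKM in LL and at 35.9, 32.5, 34.2 and 37.3 FPKM in HL, a log2 change of 1.62 ± 0.12 (SE, adjusted p = 8.67e-10, limma). ARP1 (AT1G43170), which gave 95.7% of L3 mRNA, was at 362, 388, 369 and 379 FPKM in LL and at 597, 557, 488 and 509 FPKM in HL. Its log2 change was 0.52 ± 0.11 (SE, adjusted p = 0.000632, limma). RPSAb (AT3G04770), a minor gene for the 40S protein SA, was at 5.37, 6.22, 5.10 and 5.42 FPKM in LL and at 21.8, 18.5, 14.6 and 17.8 FPKM in HL, a log2 change of 1.54 ± 0.17 (SE, adjusted p = 1.16e-07, limma). RPSAb shares 132 bases with an overlapping gene, so its counts are uncertain to that extent.

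Next in size were RPS11B (AT4G30800) at 1.32, RPS2D (AT3G57490) at 1.20, RPL7A (AT1G80750) at 1.17, RPL37A (AT1G15250) at 1.15, RPL13AC (AT4G13170) at 1.09, RPL27A (AT2G32220) at 1.08 and AT1G57860, a gene for L21 named RPL21E, at 1.07. All of the 10 largest rises were in genes that gave under 20% of the FPKM of their protein's genes, and their mean FPKM over all libraries ranged from 12.4 to 146. RPL13AC overlaps another gene over 1376 bases on the opposite strand, and AT1G57860 is 95.8% identical to another L21 gene over 660 bases, so reads may be divided between them and their partners. Over all proteins with several genes, the median log2 change of the most abundant gene was 0.57 (72 of 73 tested rose, range 0.30 to 0.85), and that of the other genes was 0.61 (99 of 109 rose and 1 fell, range -0.54 to 1.78). The medians were close, and the spread was wider among the less abundant genes. Across the 191 tested members, Spearman's rho between mean level and HL change in Col-0 was -0.08, a description over genes that share libraries.

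**Figure D3:**
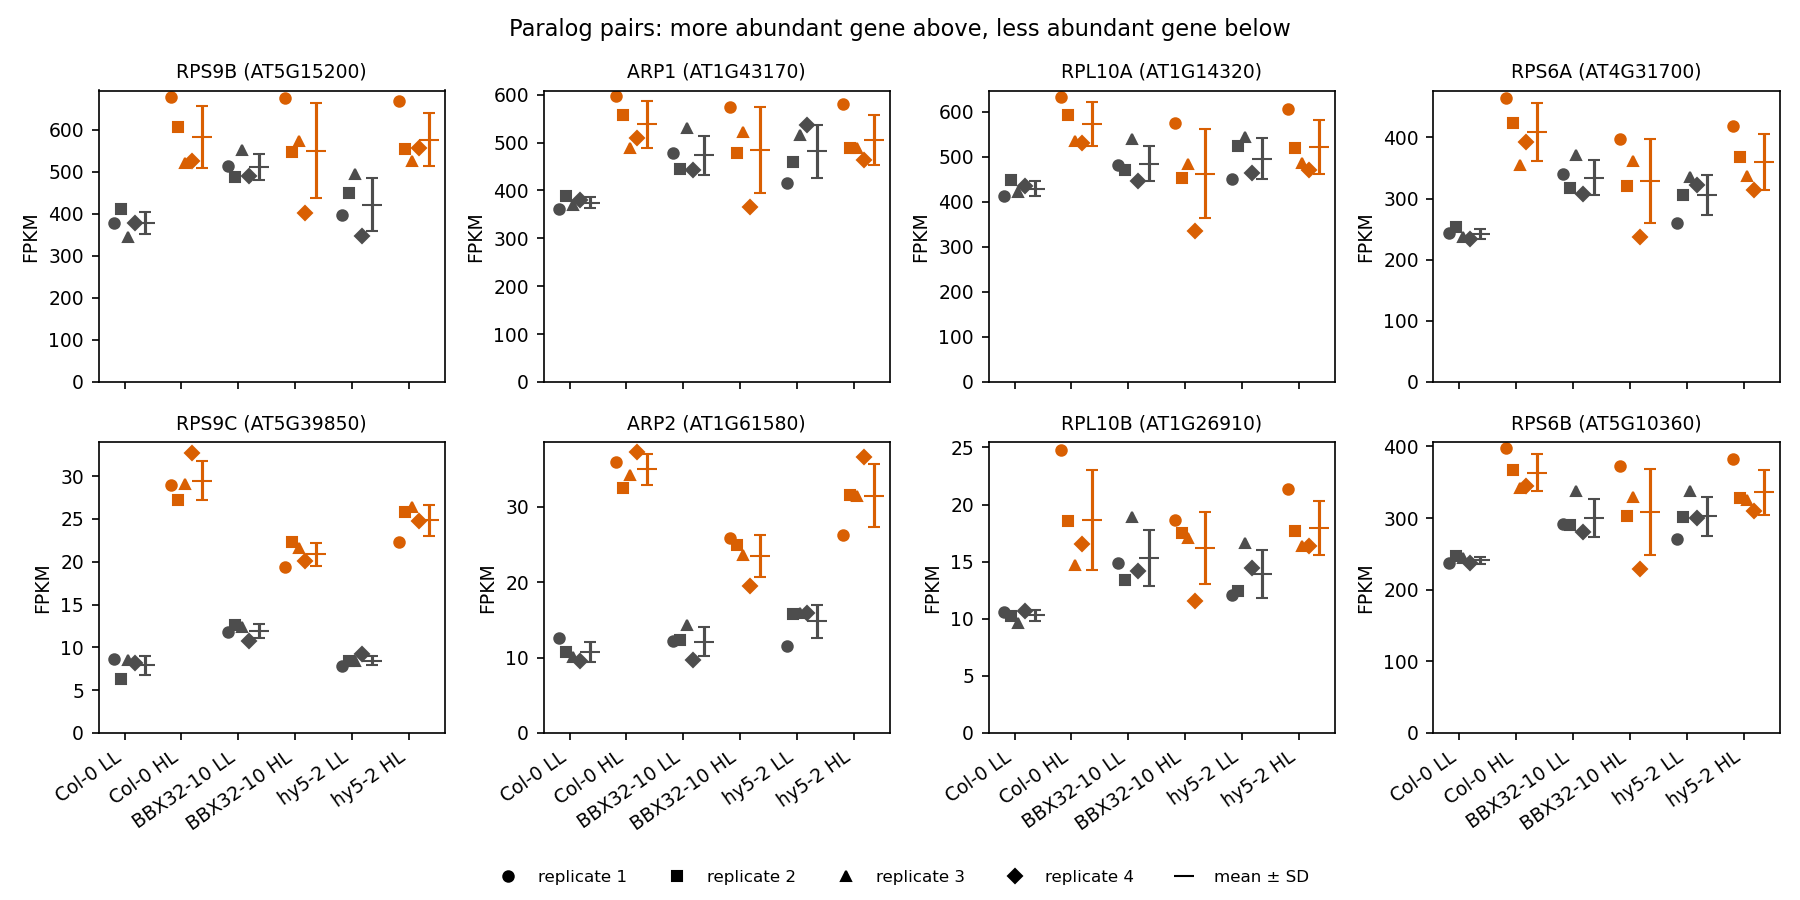
FPKM (vertical axes, from 0) in each library of the 6 groups for 4 pairs of paralogs, the more abundant gene in the upper row and the less abundant in the lower row, with replicate symbols and the mean ± SD beside them. RPS9C and ARP2 separate HL from LL in all 3 genotypes, while ARP1 overlaps between light levels in BBX32-10 and hy5-2, and RPS9B in BBX32-10.

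The fall was in RPL18AA (AT1G29970), described as a 60S protein L18a. It was at 18.3, 20.5, 17.4 and 19.8 FPKM in Col-0 LL and at 13.2, 10.2, 13.7 and 14.3 FPKM in HL, a log2 change of -0.54 ± 0.11 (SE, adjusted p = 0.000297, limma). This locus contains most of another annotated L18a gene on the same strand, with 629 identical bases, so the reads of the pair cannot be separated. The 12 tested members that were not called in Col-0 included 3 genes for L41, each with a mean FPKM between 42.8 and 119, and RPL10AB (AT2G27530), a 60S gene in which the piggyback1 leaf-shape mutation lies. RPL10AB was at 225, 257, 228 and 233 FPKM in LL and at 337, 326, 251 and 256 FPKM in HL, and its log2 change was 0.30 ± 0.13 (SE, adjusted p = 0.0553, limma). Of the HL libraries of RPL10AB, 2 lay just below the highest LL library.

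A ratio of paralogs within a library does not depend on how the library was scaled. For 8 of 9 pairs the log2 ratios of Col-0 HL and Col-0 LL did not overlap. The largest difference was in ARP1 to ARP2, from 5.01 ± 0.186 in LL to 3.90 ± 0.159 in HL (SD, n = 4, exact permutation p = 0.0286). RPL10A to RPL10B, genes of the 60S protein L10 that joins late in subunit assembly, fell from 5.25 ± 0.0771 to 4.89 ± 0.198 (SD, n = 4, exact permutation p = 0.0286), and RPL23AA to RPL23AB went from 0.81 ± 0.0691 to 1.16 ± 0.106 (SD, n = 4, exact permutation p = 0.0286). RPL4A to RPL4D was -0.39 ± 0.0816 in LL and -0.39 ± 0.107 in HL (SD, n = 4, exact permutation p = 0.943). The tests were two-sided, 0.0286 is the smallest p that 4 against 4 libraries can give, and over the 18 ratios tested its adjusted value was 0.0514, so no ratio passed the threshold. Without replicate 4 of BBX32-10 LL, 11 of the 18 passed. The pair of genes for L5, which also gave a ratio, is not among the members, because its descriptions lack the words of the rule.

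In BBX32-10, HL changed few of these genes. Of 191, 9 rose and 1 fell, against 10.7% of all genes called higher and 8.85% called lower. The median log2 change was 0.07, and that of all genes was 0.02. The rises included ARP2 (0.90 ± 0.12 SE, adjusted p = 2.53e-05, limma), RPS9C (0.76 ± 0.09 SE, adjusted p = 3.37e-06, limma), RPL37A (0.51), RPL10C (AT1G66580, 0.46) and AT1G57540 (0.41), described only as a 40S protein. The fall was in AT2G28815, one of the 3 genes annotated as mitochondrial, at 1.24, 1.47, 0.714 and 0.996 FPKM in LL and 0.612, 0.839, 0.452 and 0.311 FPKM in HL. It reached an FPKM of 1 in LL libraries alone, so these values too are a description. Without replicate 4 of BBX32-10 HL, 41 members were called (40 higher) and the median was 0.20; without replicate 1 of the same group, 11 were called and the median was -0.02. BBX32 mRNA itself was at 364, 719, 922 and 1049 FPKM in replicates 1 to 4 of that group, in which the summed ribosomal protein mRNA was at 40716, 33903, 36690 and 25704 FPKM. The part of transgene level in this spread was not tested.

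RPS9C was at 11.8, 12.6, 12.4 and 10.8 FPKM in BBX32-10 LL and at 19.3, 22.3, 21.6 and 20.1 FPKM in HL, so its rise was visible in each library. ARP2 was at 12.2, 12.3, 14.4 and 9.62 FPKM in LL and at 25.9, 24.9, 23.6 and 19.5 FPKM in HL, again without overlap. ARP1 was at 478, 445, 530 and 443 FPKM in LL and at 575, 477, 523 and 365 FPKM in HL, where the groups overlapped.

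The interaction term tests whether the HL response of BBX32-10 differed from that of Col-0. It was lower for 140 members and higher for 0, against 12.9% of all genes called lower and 6.95% called higher. The median interaction was -0.56 on the log2 scale, compared with -0.03 for all genes. It was called for 59 of 81 tested 40S genes, 77 of 99 60S genes and 3 of 8 stalk genes, with medians of -0.53, -0.57 and -0.49. Both the interaction and the Col-0 response use the same Col-0 libraries. The 10 largest differences were in RPSAb (-1.11 ± 0.24 SE, adjusted p = 0.00207, limma), RPL7A (-1.06 ± 0.16 SE, adjusted p = 0.000117, limma), RPS9C (-1.02), RPS11B (-0.99), RPL27A (-0.90), RPS2D (-0.88), RPL21E at AT1G57860 (-0.84), RPL10AC at AT5G22440 (-0.82), RPL13AC (-0.81) and RPL9D at AT4G10450 (-0.80). RPL10C, at 99.5, 104, 95.9 and 94.9 FPKM in Col-0 LL and 178, 153, 144 and 147 FPKM in Col-0 HL, was at 121, 125, 143 and 102 FPKM in BBX32-10 LL and 172, 179, 146 and 178 FPKM in BBX32-10 HL. Its HL libraries lay above its LL libraries in both genotypes, and its interaction of -0.18 ± 0.14 (SE, adjusted p = 0.412, limma) was not called. Without replicate 4 of BBX32-10 HL the interaction was called for 94 members, with a median of -0.42. Leaving out replicate 1 of Col-0 HL gave 90 and replicate 3 of BBX32-10 LL gave 92. The share of all genes called in these refits is not given beside them.

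**Figure D4:**
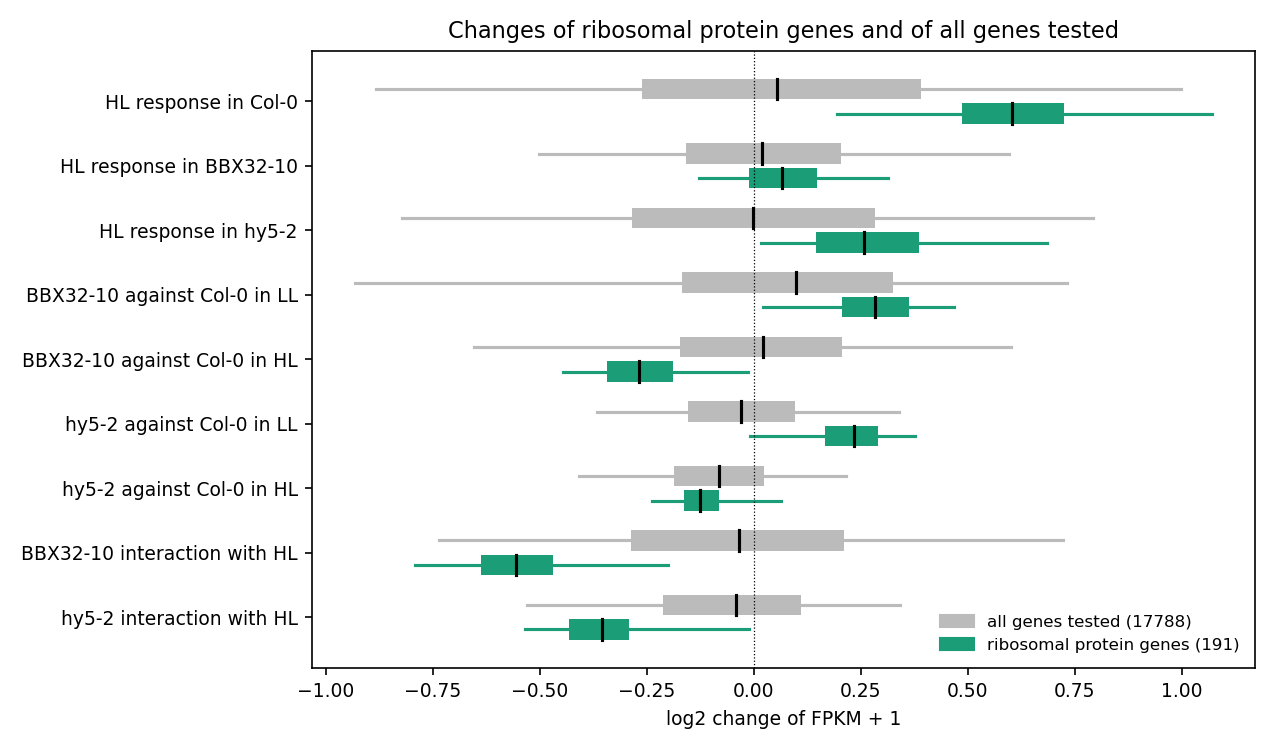
For each of 9 comparisons, the horizontal axis gives the log2 change of FPKM + 1; boxes span the quartiles, black bars are medians and lines run from the 5th to the 95th percentile, in grey for all 17788 genes tested and in green for the 191 ribosomal protein genes. The green box lies to the right of the grey median in the HL response of Col-0 (median 0.60) and to the left of it in the BBX32-10 interaction (median -0.56).

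BBX32-10 and Col-0 also differed in LL. Against Col-0 in LL, 93 members were higher in BBX32-10 and 1 was lower, against 25.8% of all genes called higher and 16.7% called lower. The median log2 difference was 0.28, compared with 0.10 for all genes. It was called for 38 of 81 tested 40S genes, 53 of 99 60S genes (52 higher) and 2 of 8 stalk genes. RPL7A, one of the largest, was at 29.0, 33.0, 35.0 and 30.9 FPKM in Col-0 LL and at 54.7, 54.5, 65.4 and 50.8 FPKM in BBX32-10 LL, a log2 difference of 0.80 ± 0.11 (SE, adjusted p = 7.83e-06, limma). RPL10B (AT1G26910) was at 10.6, 10.3, 9.65 and 10.7 FPKM in Col-0 LL and at 14.9, 13.4, 18.9 and 14.2 FPKM in BBX32-10 LL, a log2 difference of 0.52 ± 0.15 (SE, adjusted p = 0.00756, limma). For both genes the groups did not overlap, as for 145 of the 191 members in all that were higher in every BBX32-10 LL library, against 30.6% of all genes tested. The number called depended on scaling and on 1 library: it was 38 after rescaling by the median of ratios (37 higher), 33 without replicate 3 of BBX32-10 LL, and 60 and 62 without replicates 1 and 3 of Col-0 LL. With only the Col-0 LL and BBX32-10 LL libraries in the fit it was 153. In the fit of all libraries, 49.2% of tested members were called in either direction, beside 42.5% of all genes. The share of all genes called is not given for these refits. The counts therefore do not show whether the members still exceeded that share. Some markers of other cell types moved with this difference. The 2 phloem markers summed to 67.4 to 91.7 FPKM in Col-0 LL and 108.8 to 127.1 FPKM in BBX32-10 LL. The 2 guard cell markers summed to 13.2 to 14.2 FPKM and 15.8 to 16.4 FPKM, both sets without overlap. The 6 dividing-cell markers overlapped, with sums of 9.99 to 15.4 FPKM in Col-0 LL and 7.82 to 15.3 FPKM in BBX32-10 LL. Their part in the result was not tested.

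In HL the median difference had the opposite sign, but the libraries of most members overlapped. For 22 of the 191 members all 4 BBX32-10 HL libraries lay below all 4 Col-0 HL libraries, as for 10.6% of all genes tested. Against Col-0 HL, 0 members were higher in BBX32-10 and 60 were lower, against 10.9% of all genes called higher and 12.7% called lower, with a median log2 difference of -0.27 (0.02 for all genes). RPL22A (AT1G02830), a rare gene for the 60S protein L22, was at 0.663, 1.60, 1.76 and 0.686 FPKM in Col-0 HL and at 0.181, 0, 0.0989 and 0 FPKM in BBX32-10 HL. It reached an FPKM of 1 in HL libraries of Col-0 and hy5-2 alone and was tested because of them, so its values are given as a description, although it is counted among the 60. The largest differences in the other members were in ARP2 (-0.56), RPS11B (-0.52), RPS30A (AT4G29390, -0.51) and RPL27A (-0.49). This comparison rested on single libraries: 10 members were called without replicate 4 of BBX32-10 HL, 121 without replicate 1 and 35 without replicate 2 of that group, and 20 and 29 without replicates 1 and 2 of Col-0 HL. With only the HL libraries of the 2 genotypes in the fit, 4 were called. Without the share of all genes called in the same refits, these counts do not show whether the shifts were particular to the members.

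In hy5-2, HL raised 76 members and lowered 0, against 23.1% of all genes called higher and 20.4% called lower. All 76 also rose in Col-0. They include RPL22A, which was tested because of HL libraries of Col-0 and hy5-2 alone, so its rise is a description. The median log2 change was 0.26 (0.00 for all genes), with 35 of 81 tested 40S genes, 37 of 99 60S genes and 3 of 8 stalk genes called, and 78 members lay above LL in every HL library, against 20.7% of all genes tested. RPS9C was at 7.84, 8.44, 8.36 and 9.18 FPKM in hy5-2 LL and at 22.4, 25.9, 26.4 and 24.8 FPKM in hy5-2 HL, a log2 change of 1.45 ± 0.09 (SE, adjusted p = 6.85e-11, limma). ARP2 was at 11.6, 15.8, 15.9 and 16.0 FPKM in LL and at 26.3, 31.5, 31.5 and 36.6 FPKM in HL, a log2 change of 1.04 ± 0.12 (SE, adjusted p = 7.99e-07, limma). RPSAb rose by 1.08. Both S6 genes missed the threshold here: RPS6A was at 260, 305, 335 and 322 FPKM in LL and at 419, 369, 336 and 315 FPKM in HL, with overlap, and a log2 change of 0.23 ± 0.13 (SE, adjusted p = 0.144, limma).

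**Figure D5:**
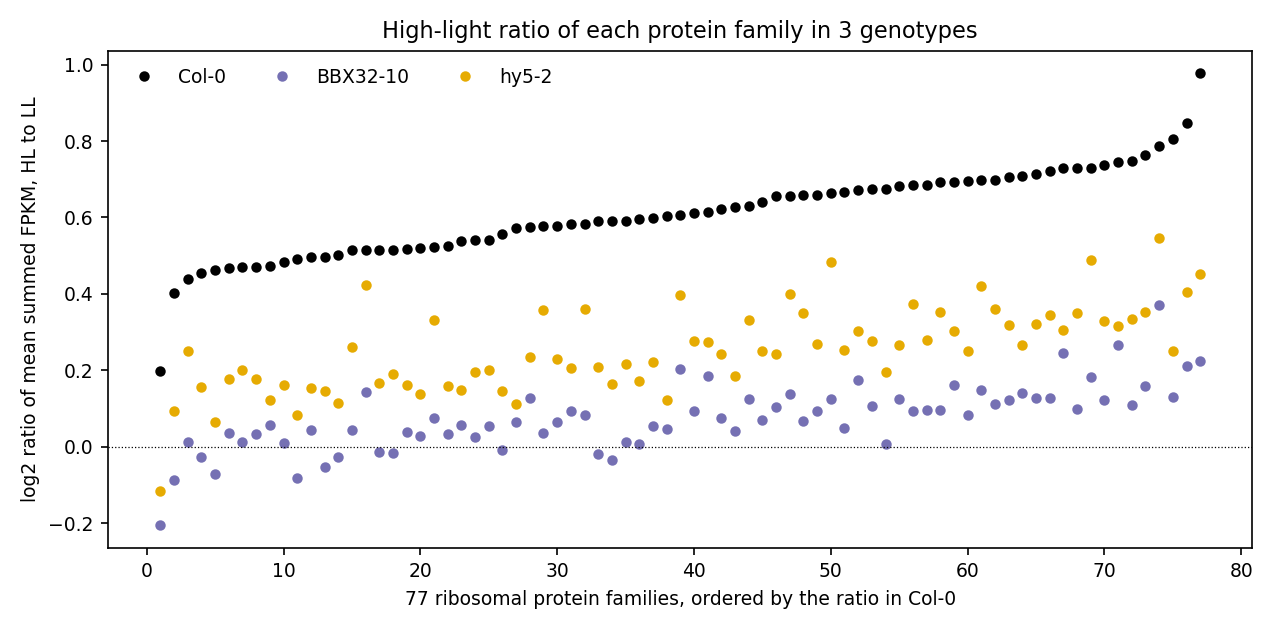
Each point is the log2 ratio of mean summed FPKM in HL to that in LL (vertical axis) for 1 of 77 ribosomal protein names with a tested gene, ordered along the horizontal axis by the ratio in Col-0 (black), with BBX32-10 in purple and hy5-2 in yellow. Each black point lies above 0, from 0.20 for L41 to 0.98 for L14, and the purple points lie lower, with L41 at -0.21 and L14 at 0.23.

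Differences between hy5-2 and Col-0 did not pass the threshold for any member. In LL, 0 members were called higher and 0 lower by limma, against 0.174% of all genes higher and 0.197% lower. The median log2 difference was 0.23 (-0.03 for all genes), and 89 members had an unadjusted p under 0.05. Every hy5-2 LL library lay above every Col-0 LL library for 83 members and below for 1, against 5.09% and 5.5% of all genes tested. In HL, 0 were called higher and 0 lower, against 0.349% and 2.06% of all genes; the median was -0.13 (-0.08 for all genes), and 7 had an unadjusted p under 0.05. The interaction of hy5-2 with HL was called higher for 0 members and lower for 0, against 0.0281% and 0.624% of all genes, with a median of -0.36 (-0.04 for all genes) and 112 members at an unadjusted p under 0.05. With only the libraries compared in the fit, 6 members were called for this interaction. A p that misses the threshold does not show that the genotypes responded alike. Both lines were compared with the same Col-0 libraries, so their differences from Col-0 are not independent.

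The scale of the libraries was checked because FPKM are shares of a library. Light-harvesting antenna genes, 18 by description, took 12.1% ± 0.474 of all FPKM in Col-0 before HL and 4.63% ± 0.176 after it (SD, n = 4), so the results were repeated with other scalings. In BBX32-10 the range was 9.31% to 10.4% in LL and 5.94% to 7.10% in HL. In hy5-2 it was 10.8% to 12.0% in LL and 4.47% to 4.91% in HL. Size factors from the median of ratios ranged from 0.869 to 1.14. After rescaling by them, the summed members went from 27040 to 28140 FPKM in Col-0 LL to between 36620 and 41964 FPKM after HL, and 171 members rose and 2 fell, with a median log2 change of 0.52; 53.8% of all genes were then called in either direction, with a median of -0.02. In BBX32-10 the rescaled median HL change was 0.05 and in hy5-2 0.25, and the BBX32-10 interaction was called lower for 112 members with a median of -0.49, beside 21.0% of all genes called in either direction and a median of 0.02. BBX32-10 against Col-0 in LL had a rescaled median of 0.19, and the median of all genes on that scale is not given here. The hy5-2 difference in HL had a rescaled median of -0.03. In LL the mean rescaled sum of the members was 1.142 times that of Col-0 in BBX32-10 and 1.199 times in hy5-2.

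Genes that build ribosomes rose with the members in Col-0. In a list of 30 ribosome biogenesis genes, 28 rose and 0 fell in Col-0 HL, with a median log2 change of 1.02, beside 0.60 for the members and 0.05 for all genes. All counts for Col-0 HL in these lists stand against 30% of all genes called higher and 21.6% called lower, 51.6% in all. Nucleolin NUCL1 (AT1G48920), which acts in transcription and processing of ribosomal RNA, changed by 1.02, the fibrillarin gene AT4G25630 (named MED36A), a methyltransferase of ribosomal RNA, by 1.52, BOP1 (AT2G40360) and PES (AT5G14520), partners in 60S assembly, by 1.45 and 1.24, and RID2 (AT5G57280), a nucleolar methyltransferase-like protein, by 1.54. In BBX32-10, 2 of the 30 rose in HL and 25 were higher than in Col-0 in LL, and the interaction was called lower for 27. The shares of all genes were 10.7%, 25.8% and 12.9%. In hy5-2, 23 rose and 1 fell, against 23.1% and 20.4% of all genes. Of 55 tested genes for translation initiation and elongation factors, 38 rose in Col-0 HL and 0 fell (median 0.35). In HL, 3 of them rose in BBX32-10 and 16 in hy5-2, against 10.7% and 23.1% of all genes. For 25 the BBX32-10 interaction was lower, against 12.9% of all genes. Of 40 tested genes for 30S and 50S proteins of organellar ribosomes, 24 rose and 3 fell in Col-0 HL (median 0.29). For these the BBX32-10 interaction was lower for 8 and higher for 1, against 12.9% and 6.95% of all genes. Of 7 TOR signalling genes, 1 rose and 2 fell in Col-0 HL, a share near that of all genes. The S6 kinase gene AT3G08730 (named ATPK1) changed by 0.40, TOR (AT1G50030) by -0.27 and LST8-1 (AT3G18140) by -0.29.

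Other cell types and sequence sharing were set beside the Col-0 response. The summed FPKM of 6 dividing-cell markers was 9.99 to 15.4 in LL plants of Col-0 and 8.45 to 32.5 after HL, with overlap. The guard cell marker KAT1 was at 6.09 to 7.66 FPKM in Col-0 LL and 10.5 to 13.1 FPKM in Col-0 HL, without overlap. FAMA was at 6.28 to 7.26 and 6.16 to 8.24 FPKM, with overlap. The phloem markers differed in opposite directions without overlap. SUC2 was at 60.8 to 83.1 FPKM in LL and 37.3 to 47.6 FPKM in HL, and APL at 6.62 to 9.48 and 11.6 to 14.0 FPKM. Their part in the result was not tested. Of the 213 members, 69 had another transcript with at least 90% identity over at least 100 bases and 57 overlapped another gene. Among the 105 tested members with neither, 95 rose and 0 fell in Col-0 HL, with a median of 0.60. By promoter motif, the median change in Col-0 HL was 0.65 for 27 tested members with both motifs, 0.67 for 10 with a telo-box alone, 0.58 for 102 with site II alone and 0.63 for 52 with neither.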

How the data were processed

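RNA-seq values of 24 leaf libraries (6 groups of 4 plants) were used as deposited: 1 table of FPKM per gene made by the authors, whose calculation is not given in the sources used here. The submitters' processing notes name CASAVA, HISAT2 2.0.5, HTSeq 0.6.1, DESeq and DESeq2 1.20.0 and the build TAIR10; strand use is not given. FPKM steps gave the depth (35408722 to 49341934 fragments; values within 0.05 of whole numbers), and no 2 replicates agreed within counting noise (chi-square per degree of freedom 9.50 to 87.0 over 36 pairs). Genes that reached an FPKM of 1 in 4 or more libraries (17788) were fitted as log2(FPKM + 1) on 6 group means with limma 3.58.1 in R 4.3.3 (eBayes with trend, two-sided, Benjamini-Hochberg per comparison over all genes, threshold 0.05). Ratios of 9 paralog pairs were tested by exact permutation. Functions were tested on simulated data. The members, lists and named genes were chosen with earlier results of these data known. Named genes were a fixed set of paralogs and mutant genes, the 10 highest in mean FPKM, and the 10 largest changes per direction among called members (5 for the smaller comparisons); L41 genes and proteins with extreme sums were added after their values were seen. Promoters and overlaps came from TAIR10.1, where all 213 members have the file's start and end; similar transcripts were sought with blastn 2.17.0. Alternatives were another pseudocount, filters, 3 scalings, fewer libraries, a replicate block and each library left out.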

Additional observations from a re-analysis of the deposited data

Results flagged for a closer look

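The HL response of ribosomal protein genes differed between BBX32-10 and Col-0 by the interaction term of the limma fit, which was lower for 140 of 191 tested members. Among these were RPSAb (-1.11), RPL7A (-1.06), RPS9C (-1.02), RPS11B (-0.99), RPL27A (-0.90), RPS2D (-0.88), RPL21E at AT1G57860 (-0.84), RPL10AC (-0.82), RPL13AC (-0.81) and RPL9D (-0.80), all on the log2 scale with n = 4 per group and adjusted p under 0.05 by limma.

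In 3 of 108 groups of 4 values, 1 library lay far from the other 3 by Dixon's criterion, which chance meets in about 1 of 20 groups. ARP2 in hy5-2 LL had 1 library at 11.6 FPKM, with the others at 15.8 to 16.0. RPL22A in BBX32-10 LL had 1 library at 0.300 FPKM, with the others at 0. RPL10AB in hy5-2 HL had 1 library at 328 FPKM, with the others at 260 to 266.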

How the results depend on the processing

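No named gene changed sign under the alternatives run, in the comparison for which it was named. Some calls did change. With 1 library left out, 33 results of named genes lost their call, 3 gained one and 700 stayed the same. Under the other settings these numbers were 12, 3 and 637. The signs of the other members were not compared gene by gene. The median HL change in BBX32-10, 0.07 and not tested, was -0.02 without replicate 1 of BBX32-10 HL. The members called for BBX32-10 against Col-0 in LL, 94 in all, numbered 38 after rescaling by the median of ratios, over all genes or over genes that are not members, and 153 with only the libraries compared. With only the libraries compared, 5 members were called for the HL response in BBX32-10 (10 in the fit of all libraries), 4 for BBX32-10 against Col-0 in HL (60), 1 for hy5-2 against Col-0 in HL (0) and 6 for the hy5-2 interaction (0). A mean FPKM of at least 5 gave 1 for hy5-2 against Col-0 in HL. Leaving out 1 library in turn gave 171 to 180 members for the HL response in Col-0 (179), 4 to 41 in BBX32-10 and 55 to 87 in hy5-2 (76). It gave 33 to 88 for BBX32-10 against Col-0 in LL, 10 to 121 in HL, 90 to 163 for the BBX32-10 interaction (140), 0 to 1 for hy5-2 against Col-0 in LL, 0 to 3 in HL and 0 to 0 for the hy5-2 interaction. Paralog ratios under the threshold numbered 0 to 11 in the same refits. Nothing in the labels says that a replicate number marks a shared tray, batch or day. Deviations of same-numbered libraries from their group means correlated from -0.529 to 0.471, over 0.1 in 12 of 60 same-numbered pairs of libraries. Between Col-0 HL and hy5-2 HL they were 0.471, -0.065, 0.215 and 0.308 for replicates 1 to 4. Between Col-0 HL and BBX32-10 HL they were -0.287, -0.122, -0.529 and 0.049. Differently numbered libraries were not compared, so a factor shared by same-numbered libraries was not tested. With the replicate block, the HL response in Col-0 was called for 180 members and the BBX32-10 interaction for 143. The cause of these differences was not tested, and the share of all genes called in each refit is not given beside these counts. Depth limits low genes such as RPL22A, for which a value of 0 allows up to 3 fragments, by counting error alone.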
